A study of Mus musculus with 2 samples.

Results

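Respiratory complexes III and IV, cytochrome c and ATP synthase were examined as a set of nuclear genes in the gastrocnemius muscle of the mouse calf. Members were all annotated genes whose symbol begins with Uqcr, Atp5 or Cox4 to Cox8 followed by a letter, plus Cyc1 and Cycs, that had reads in both libraries, with names marked as pseudogenes by -ps left out. They numbered 43 of the 11564 annotated genes with reads in both libraries. Of these, 9 belonged to complex III, 1 encoded cytochrome c, 16 carried complex IV names and 17 carried ATP synthase names. The study sequenced long cDNA reads from male B6CASTF1/J mice aged 2 months, an F1 cross between strains C57BL/6J and CAST/EiJ. Its single group, with no treatment or mutation named, holds replicate 2 and replicate 1, each a library made from 2 µg of total RNA. The males are numbered differently, but the labels give both libraries the same donor identifier, so it is not settled whether they are separate animals. No comparison between conditions was possible, and with 1 library against 1 no test was run on their difference.

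Complex III passes electrons from ubiquinol to cytochrome c, complex IV passes them from cytochrome c to oxygen, and both pump protons out of the mitochondrial matrix. ATP synthase lets protons flow back through its membrane ring of c subunits and uses the rotation to make ATP in its F1 head. Several complex IV subunits, and the c subunit, are encoded by more than 1 nuclear gene, and some complex IV genes have a form used mainly in heart and skeletal muscle. The catalytic cores of complexes III and IV also contain subunits encoded by mitochondrial DNA, which the gene names above do not cover.

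Replicate 2 held 1402875 reads of annotated genes and replicate 1 held 1107128. A gene with no read in them could be present at up to 2.14 counts per 1000000 reads of annotated genes (CPM) in replicate 2 and 2.71 CPM in replicate 1, taking 3 counts as the floor. Spike-in RNA took 2.13% and 4.23% of all reads in replicates 2 and 1. Defining markers of the labelled tissue were present: 6 skeletal muscle genes summed to 167763 CPM in replicate 2 and 195130 CPM in replicate 1. Of 4 heart genes, Nppa, Tnnt2 and Tnni3 had no reads and Myh6 had 5 and 1 in replicates 2 and 1. The adipocyte genes Adipoq and Plin1 had none, and of the brown fat genes Ucp1 had none while Cidea had 10 reads in replicate 2 and 0 in replicate 1. Intervals and floors cover counting error only, and the values below describe these libraries.

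The sequences of 1 paralog pair and of 1 alternative exon carry much of what follows. Cox6a2 and Cox6a1 encode the muscle and the widely used form of complex IV subunit 6A. The whole coding sequence of Cox6a2 and the last 300 coding bases of Cox6a1 (mouse build GRCm38, Cox6a2 on chromosome 7 and Cox6a1 on chromosome 5, both on the minus strand) are printed 5′ to 3′ with the bases that differ or have no partner in a pairwise alignment in capitals.
Cox6a2: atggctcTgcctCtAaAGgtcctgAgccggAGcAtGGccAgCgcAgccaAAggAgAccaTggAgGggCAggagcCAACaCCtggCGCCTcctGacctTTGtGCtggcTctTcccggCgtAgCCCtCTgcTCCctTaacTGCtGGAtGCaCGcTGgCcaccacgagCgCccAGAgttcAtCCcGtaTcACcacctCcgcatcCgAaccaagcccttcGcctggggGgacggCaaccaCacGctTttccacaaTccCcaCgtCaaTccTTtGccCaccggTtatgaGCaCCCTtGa
Cox6a1: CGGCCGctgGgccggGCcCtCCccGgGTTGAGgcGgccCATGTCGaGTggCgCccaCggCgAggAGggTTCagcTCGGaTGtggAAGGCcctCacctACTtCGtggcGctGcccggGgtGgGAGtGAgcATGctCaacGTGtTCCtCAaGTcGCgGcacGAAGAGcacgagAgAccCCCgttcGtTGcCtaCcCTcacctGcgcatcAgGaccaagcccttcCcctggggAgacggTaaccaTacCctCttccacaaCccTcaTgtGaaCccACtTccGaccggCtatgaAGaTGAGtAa
They matched at 190 of 294 aligned bases, or 64.6%, so a long read over the coding sequence can be told apart between them. For Cox7a1 and Cox7a2 the match was 62.6% of 243 aligned bases, and for Cox8b and Cox8a it was 56.4% of 204.

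Atp5c1 encodes the γ subunit, the rotating central stalk of ATP synthase. Its last coding bases are printed for the form that holds a short alternative exon and for the form that skips it. Capitals mark the bases from the exon joined after the shared sequence, up to and including the stop codon.
Exon included: catctctggggctgctgctctGGATTAA
Exon skipped: catctctggggctgctgctctGTAA
The exon is 37 nt long, so it is not a whole number of codons, and in the included form the stop codon lies within the exon. The coding sequence including the stop was 897 nt with the exon and 894 nt without it, a difference of 1 codon.

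Together the members took 3.86% of the reads of annotated genes in replicate 2 and 3.22% in replicate 1, a mean of 3.54% ± 0.452 (SD, n = 2). ATP synthase genes took the most, 1.73% in replicate 2 and 1.45% in replicate 1. Complex IV genes followed with 1.30% and 1.09% in replicates 2 and 1, complex III genes with 0.766% and 0.619%, and Cycs with 0.0627% and 0.0607%. The order was the same in both libraries, and the values of neighbouring complexes did not overlap. Each long read stands for 1 cDNA molecule, so CPM values are not divided by gene length here except where a value is given per kilobase.

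**Figure D1:**
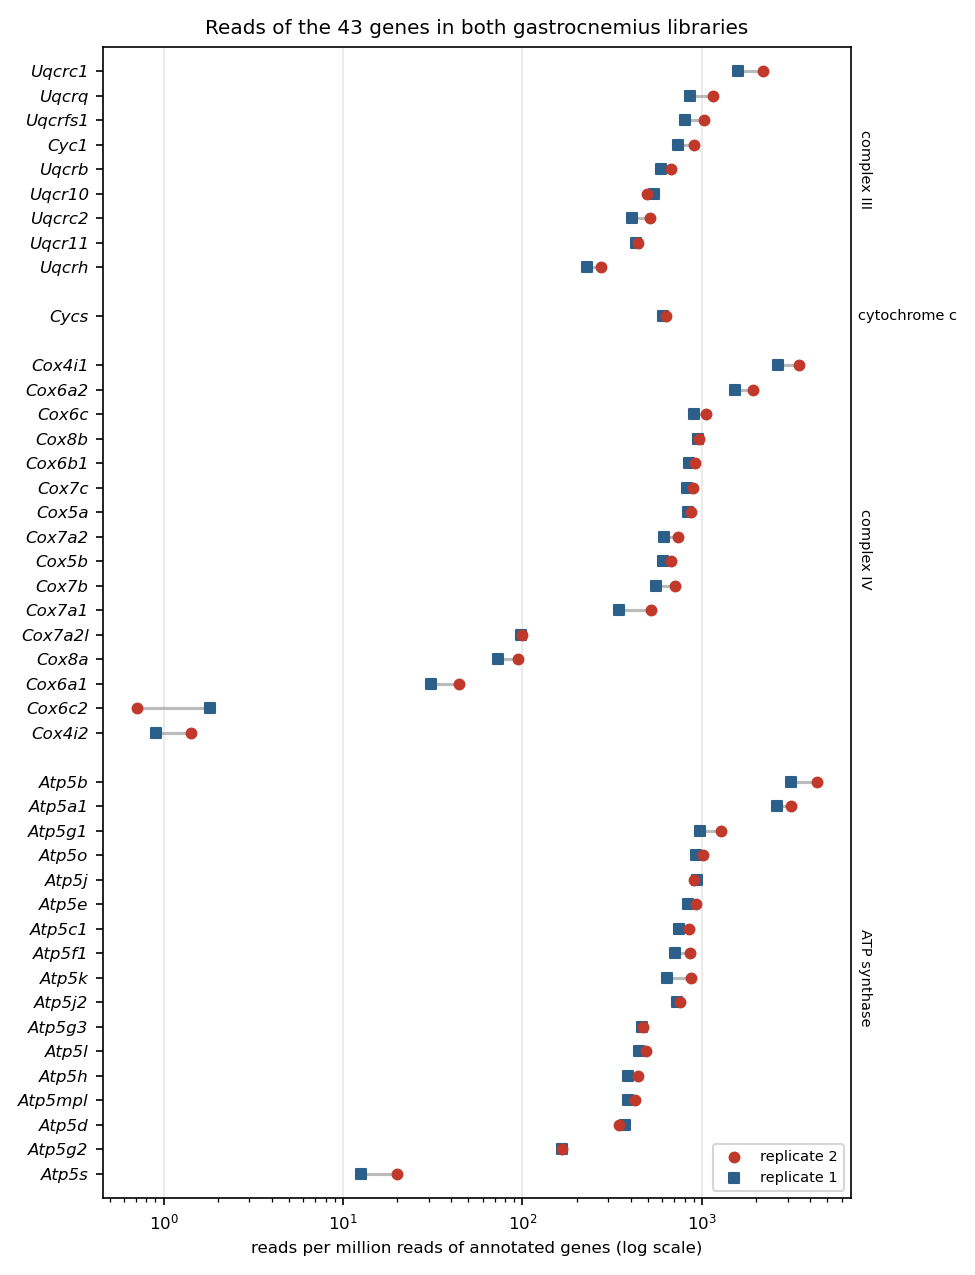
CPM (log axis) of the 43 members, grouped by complex and ordered by mean; circles are replicate 2 and squares replicate 1. Atp5b stands highest at a mean of 3749 CPM, and Cox6c2 and Cox4i2 stand lowest at 1.26 and 1.16 CPM.

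Among the proteins of complex III, the core protein gene Uqcrc1 was read most, with 3055 reads in replicate 2 and 1757 in replicate 1. Uqcrq, which encodes a small subunit, had 1621 and 954 reads in replicates 2 and 1, and Uqcrfs1, which encodes the Rieske iron-sulfur protein, had 1437 and 895. Cyc1, the gene for cytochrome c1, had 1270 and 814 reads in replicates 2 and 1. The least read were the small-subunit genes Uqcr11, with 618 and 477 in replicates 2 and 1, and Uqcrh, the hinge protein gene, with 384 and 254. The highest and the lowest gene of the complex thus lay well apart, at 1882 CPM ± 418 for Uqcrc1 and 252 CPM ± 31.3 for Uqcrh (SD, n = 2). The core proteins themselves differed, since Uqcrc2 had 724 and 452 reads in replicates 2 and 1. The small-subunit genes Uqcrb and Uqcr10 had 946 and 655, and 695 and 599 reads in replicates 2 and 1. Cytochrome c, the mobile carrier between complexes III and IV, was represented by Cycs with 880 reads in replicate 2 and 672 in replicate 1.

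Among complex IV genes, Cox4i1, for the main form of subunit 4, had 4906 reads in replicate 2 and 2943 in replicate 1. Cox6a2 had 2698 and 1688 in replicates 2 and 1, and Cox6c had 1486 and 996. Cox4i2, the lung form of subunit 4, had only 2 and 1 reads in replicates 2 and 1 and Cox6a1 had 62 and 34. The other subunit genes Cox5a, Cox5b, Cox6b1, Cox7b, Cox7c, Cox7a2 and Cox8b lay between 630 and 956 CPM by mean. Cox6c2, which the annotation calls a processed pseudogene although its symbol reads like a subunit, had 1 and 2 reads in replicates 2 and 1. Cox7a2l, which helps to join complexes III and IV into supercomplexes, had 139 and 109 reads in replicates 2 and 1.

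Within ATP synthase, the catalytic β subunit gene Atp5b was the most read member of all, with 6129 reads in replicate 2 and 3465 in replicate 1 (mean 3749 CPM ± 876, SD, n = 2). The α subunit gene Atp5a1 had 4393 and 2903 reads in replicates 2 and 1, although both subunits are present in equal number in the F1 head. Atp5c1 had 1188 and 822 in replicates 2 and 1, Atp5e, for the ε subunit, had 1295 and 921, and Atp5d, for the δ subunit, had 486 and 413. In the peripheral stalk, Atp5o had 1415 and 1031 reads in replicates 2 and 1, Atp5j 1269 and 1038, Atp5f1 1198 and 788, and Atp5h 621 and 427. The membrane subunit genes Atp5k, Atp5j2, Atp5l and Atp5mpl lay between 404 and 755 CPM by mean. Atp5s shares the name stem but is not a core subunit, and it had 28 and 14 reads in replicates 2 and 1.

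Divided by the length of each gene's most read annotated transcript, the mean levels ranked differently. Cox4i1 led with 5325 CPM per kilobase, followed by Cox8b with 2656, Cox6a2 with 2535 and Atp5e with 2084. Atp5b stood at 1957 CPM per kilobase. The length used for Cox4i1, 0.578 kb, was that of a retained-intron transcript that lacks part of the coding sequence. That transcript held 66.0% and 61.1% of the Cox4i1 reads in replicates 2 and 1, so the Cox4i1 value is not a level of its coding transcript. For Atp5f1 and Atp5j the most read model was unannotated. Their lengths used here were 0.407 and 0.809 kb, while those models had 1136 and 453 nt in replicate 2. Among members with at least 50 reads over both libraries, the lowest values were 65.6 for Cox6a1, 91.8 for Cox7a2l and 152 for Cox8a, and the same 3 genes were the lowest by mean CPM.

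The tissue forms of complex IV were compared pair by pair. Cox6a2, at chr7:128205435-128206387, took 97.8% of the reads of its pair in replicate 2 (Wilson 95% interval 97.1 to 98.2) and 98.0% in replicate 1 (97.3 to 98.6). Its log2 ratio over Cox6a1, at chr5:115345642-115348981, was 5.43 in replicate 2 and 5.61 in replicate 1, a mean of 5.52 ± 0.13 (SD, n = 2). Cox8b, at chr7:140898945-140900446, had 1346 and 1055 reads in replicates 2 and 1 against 132 and 81 for Cox8a, at chr19:7215153-7217616. The log2 ratio of Cox8b over Cox8a was 3.35 in replicate 2 and 3.69 in replicate 1, a mean of 3.52 ± 0.25 (SD, n = 2). Logs of pair ratios were taken after adding 0.5 to each count. For subunits 6A and 8, the muscle form was the main transcript in both libraries, by far more than the libraries differed.

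The pair of subunit 7A ran the other way. Cox7a1, the muscle form at chr7:30184144-30186078, had 734 reads in replicate 2 and 381 in replicate 1, while Cox7a2, the widely used form at chr9:79755361-79759878, had 1028 and 684. Cox7a1 thus took 41.7% of the pair in replicate 2 (interval 39.4 to 44.0) and 35.8% in replicate 1 (33.0 to 38.7). The log2 ratio of Cox7a1 over Cox7a2 was −0.49 and −0.84 in replicates 2 and 1, a mean of −0.66 ± 0.25 (SD, n = 2). Both intervals lie below an equal share, so the muscle form was the minor transcript in each library. In models that hold a whole annotated coding sequence, Cox7a1 had 561 and 321 reads in replicates 2 and 1 and Cox7a2 982 and 648. Those counts gave log2 ratios of −0.81 and −1.01 in replicates 2 and 1. Per kilobase the order turned, with a mean log2 ratio of 0.08, because the main annotated transcript of Cox7a1 is 0.393 kb long and that of Cox7a2 0.659 kb. On that scale the difference was smaller than the spread between the libraries.

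Cox4i1, Cox6b1 and Cox7b were set against paralogs known for use in lung or testis. Against the 2 and 1 reads of Cox4i2, Cox4i1 had 4906 and 2943, a ratio of 2453 in replicate 2 (exact interval 679 to 20261) and of 2943 in replicate 1 (528 to 116281). Cox6b1 had 1288 and 943 reads, and its paralog Cox6b2 had 0 and 1, a ratio of at least 429 in replicate 2, taking a floor of 3 counts per library for a count of 0, and of 943 in replicate 1 (169 to 37286). With so few reads of Cox4i2 and Cox6b2, these ratios show no order between the libraries. Cox7b had 987 and 617 reads and Cox7b2 had none, which makes Cox7b at least 329-fold higher in replicate 2 and at least 206-fold higher in replicate 1, with the same floor. Cox8c, a further subunit 8 gene, had no reads.

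The c ring is built from identical mature c subunits that 3 genes encode with different targeting peptides. Atp5g1 provided 66.6% of their reads in replicate 2 and 60.8% in replicate 1 (1788 and 1084 reads). Atp5g3 provided 24.7% and 28.8% in replicates 2 and 1 (662 and 514 reads), and Atp5g2 provided 8.68% and 10.3% (233 and 184 reads). The order Atp5g1, Atp5g3, Atp5g2 was the same in both libraries, with Wilson intervals that do not overlap. In their last 228 coding bases, Atp5g1 and Atp5g2 were 85.1% identical, against 74.8% over the whole alignment.

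**Figure D2:**
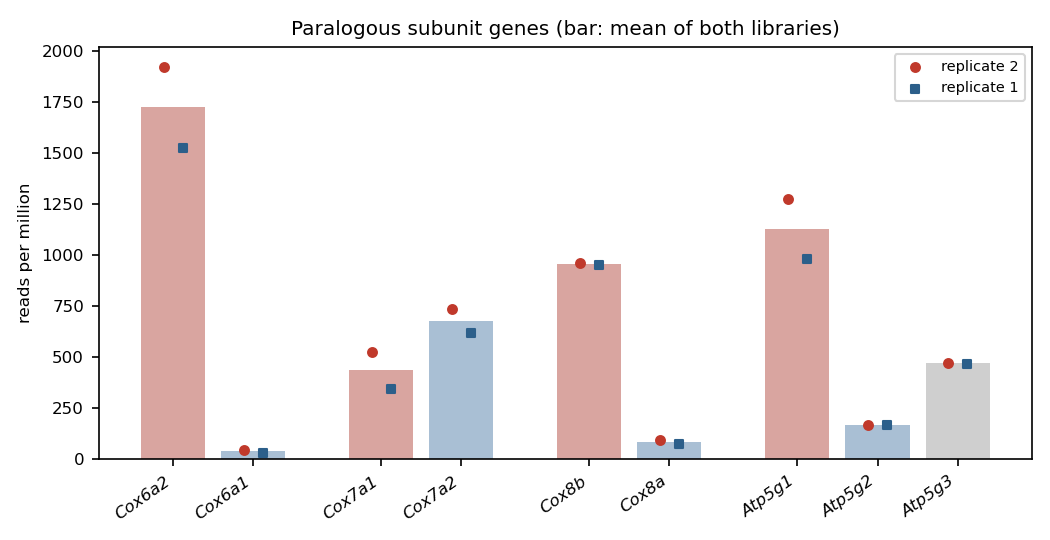
CPM of the 3 tissue-form pairs of complex IV and of the 3 c subunit genes; bars are means of both libraries, circles replicate 2 and squares replicate 1. Cox6a2 and Cox8b stand far above their partners, Cox7a1 stands below Cox7a2, and Atp5g1 leads the c subunit genes.

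Reads of some members may be shared with processed pseudogenes, which are copies of spliced mRNA in the genome. Outside the members, 15 annotated pseudogenes with reads matched a member's coding sequence at 90% identity or more over at least 80% of its length. They held 1152 reads in replicate 2 and 806 in replicate 1, equal to 2.13% and 2.26% of the members' reads. Gm12338, at chr11:75599763-75599954, is identical to Cox7c over all 192 coding bases and had 570 and 358 reads in replicates 2 and 1, against 1243 and 916 for Cox7c. Gm10231 and Gm10175 are identical to Atp5g2 over all 441 coding bases and had reads in replicates 2 and 1 as well, 195 and 165 for Gm10231 and 164 and 134 for Gm10175. Their sum exceeds the reads of Atp5g2 itself, so the level of Atp5g2 is uncertain. With these pseudogenes added, the c subunit shares became 58.9% and 52.5% in replicates 2 and 1 for Atp5g1, 21.7% and 24.5% for Atp5g3 and 19.4% and 23.0% for Atp5g2. Atp5g3 still exceeded Atp5g2 in each library, by less than either share differed between the libraries. Gm10221 matched Atp5l at 100% identity over 309 of its 312 coding bases and had 124 and 74 reads in replicates 2 and 1, against 684 and 495 for Atp5l. No pseudogene with reads reached this identity with either form of subunits 6A, 7A or 8.

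Transcript models were read for exon use. The deposited models came from TALON, which assigns each long read to an annotated transcript or to a new model. Known models took 84.9% of the members' reads in replicate 2 and 87.4% in replicate 1, against 65.5% and 66.2% over all annotated genes. Incomplete splice matches, which follow an annotated transcript but lack part of it at an end, took 13.5% and 10.6% in replicates 2 and 1, against 9.95% and 10.3% over all annotated genes. Classes were set in each library on its own. Single-exon Cox6a2 models were classed as incomplete splice matches in replicate 2 (683 reads) but as unspliced genomic models in replicate 1 (204 reads). The class shares of the 2 libraries are thus not fully alike in content. Models with an unannotated splice junction or combination took 1.11% and 1.04% in replicates 2 and 1. Over all annotated genes, new combinations of known junctions alone took 4.19% and 3.97% in replicates 2 and 1 and models with a new junction 17.4% and 17.2%. Class shares can depend on transcript length, and no background of genes with like lengths was set beside those of the members.

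With unspliced genomic models left out, all 40 members with at least 20 reads in each library had the same most read transcript model in both libraries, against 94% of all genes under the same minimum. That transcript carried a median of 95.5% of a member's reads, against 81.7% over all genes. Both comparisons can depend on read number and transcript length, and no background like the members in these was set beside them. The 6 members with the lowest share were Atp5b (60.8%), Atp5g3 (62.0%), Cox4i1 (63.6%), Uqcrq (64.5%), Atp5j (75.9%) and Cox7a1 (77.5%), each as the mean of both libraries. Cox6a2 stood at 74.0% and 99.5% in replicates 2 and 1, where its single-exon models were left out as genomic in replicate 1 only. In Atp5g3 the reads were split between annotated coding transcripts, with 407 and 321 in replicates 2 and 1 for Atp5g3-201 and 125 and 101 for Atp5g3-202. Atp5g1 used Atp5g1-202 in 1467 and 869 reads in replicates 2 and 1 and Atp5g1-201 in 243 and 183. In Atp5j the main model was an unannotated 4-exon model that held a whole annotated reading frame, with 944 and 803 reads in replicates 2 and 1, beside 78 and 64 for Atp5j-201.

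Of 124 annotated internal exons longer than 30 nt that could be scored in 37 members, 115 were included in over 90% of the reads that spanned them. The 37-nt exon of Atp5c1, at chr2:10056770-10056806 on the minus strand, was included in 13 of 1184 reads in replicate 2 and 9 of 822 in replicate 1. Its inclusion was 1.10% (Wilson interval 0.643 to 1.87) and 1.09% (0.577 to 2.07). Nearly all Atp5c1 transcripts of this muscle therefore ended in the shorter coding sequence printed above, the form known from heart and skeletal muscle. A 69-nt exon of Cox7a2l, at chr17:83503931-83503999, was the only one with a mean inclusion between 10% and 90%, with 12 of 135 and 12 of 105 reads. A 55-nt exon of Atp5j was included in 4.12% and 3.55% of reads in replicates 2 and 1.

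Unannotated splice chains in the members numbered 267 in replicate 2 and 164 in replicate 1, of which 84 were found in both. Those 84 held 359 of 600 such reads in replicate 2 and 282 of 372 in replicate 1. The most read was an Atp5j chain with 94 and 58 reads in replicates 2 and 1, 7.41% and 5.59% of the gene. Its new intron runs over chr16:84831503-84834808, and it keeps an annotated reading frame. Other Atp5j chains had 27 and 21 reads in replicates 2 and 1, and 10 and 8. A Cyc1 chain had 13 and 22 reads in replicates 2 and 1 and a Uqcrh chain had 11 and 7. Of the 84, 9 had at least 5 reads in each library.

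Not every read held a whole annotated coding sequence, which matters for what a gene's count means. A model counted as complete when it held any annotated coding sequence of the gene, which can be shorter than that of the main transcript. Over the 40 members with at least 50 reads in both libraries together, a median of 95.6% of reads in replicate 2 and 96.5% in replicate 1 fell in models with a complete reading frame, against 85.5% and 84.9% over all coding genes. The share was at least 90% in 34 of the 40, against 35.9% of all coding genes, and under 50% in 1, against 14.1%. Of the 40, 39 have a main transcript under 2500 nt. Over the 2066 coding genes under that length the medians were 89.9% in replicate 2 and 90.3% in replicate 1, with 50.5% of genes at 90% or more and 8.57% under 50%. Pooled over reads, the members stood at 83.3% and 87.2% in replicates 2 and 1. All coding genes stood at 69.4% and 70.6% in replicates 2 and 1, below the members, but those under 2500 nt stood at 85.9% and 87.5%, above the members in both. The share was lower in replicate 2 for 26 of the 40 members, against 45% of all coding genes and 49.3% of those under 2500 nt.

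**Figure D3:**
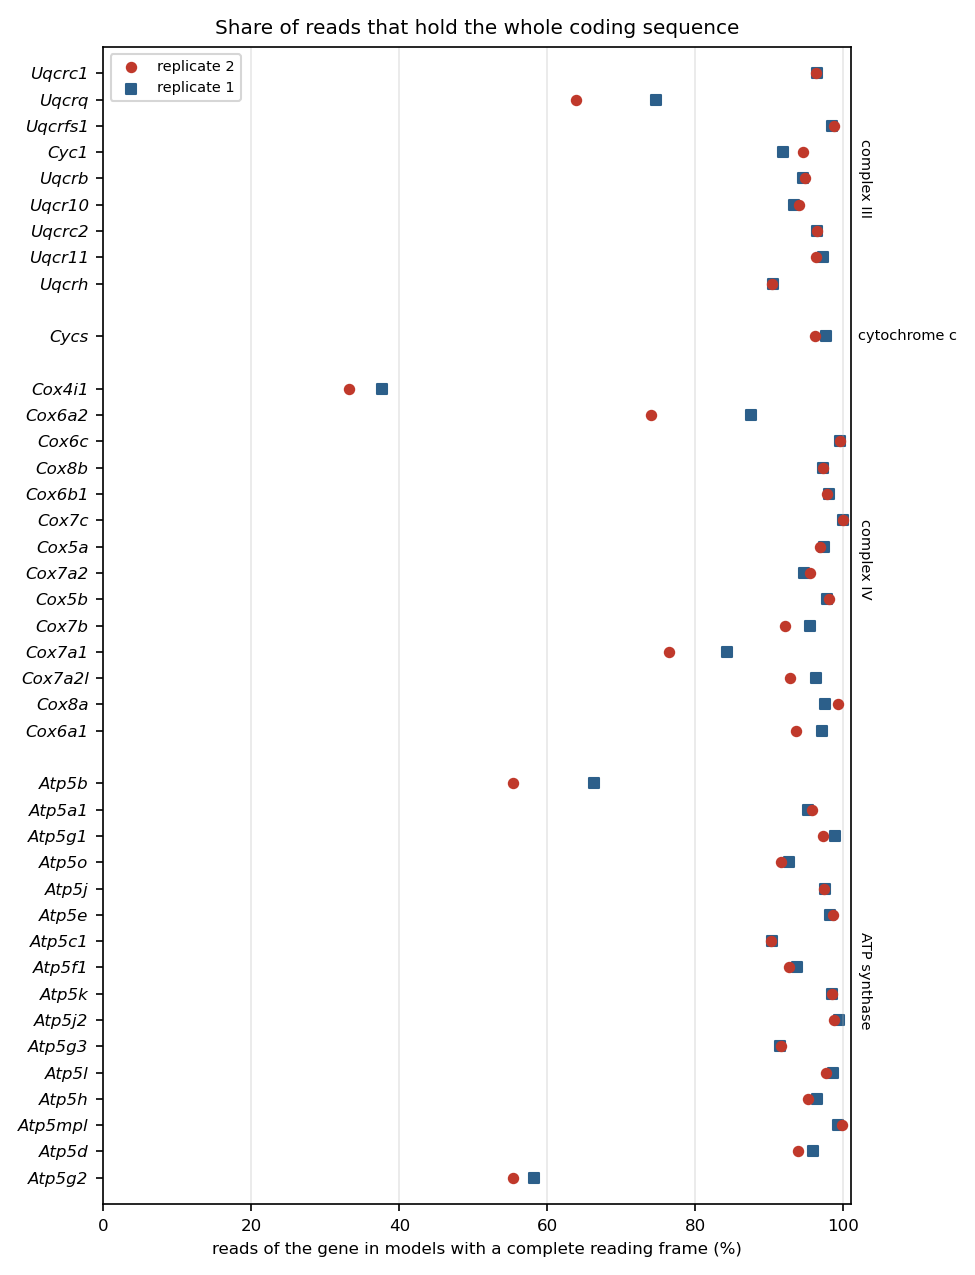
Share of each member's reads in models that hold a complete annotated reading frame (%), for members with at least 50 reads; circles are replicate 2 and squares replicate 1. Cox4i1, Atp5b, Atp5g2, Uqcrq, Cox6a2 and Cox7a1 lie apart from the others, and all 6 lie lower in replicate 2.

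In Cox4i1, at chr8:120668222-120674207, the most read model was Cox4i1-204, a 3-exon transcript that the annotation calls a retained intron and that begins inside an intron of Cox4i1-201 and lacks the exons before it. It had 3240 reads in replicate 2 and 1799 in replicate 1, or 66.0% and 61.1% of the gene. The coding transcript Cox4i1-201 had 1564 and 1060 reads in replicates 2 and 1. Counted by complete reading frames alone, Cox4i1 stood at 1162 and 1002 CPM in replicates 2 and 1, against 3497 and 2658 CPM from all reads. On that count it lay below Cox6a2 at 1424 and 1334 CPM in replicates 2 and 1, which it exceeded by all reads. Gm20388, an annotated gene on the same strand that overlaps Cox4i1, had 59 and 38 reads of its own in replicates 2 and 1.

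In Atp5b, at chr10:128083273-128090391, a 2-exon model had 2473 reads in replicate 2 and 977 in replicate 1. It starts inside an exon at base 1426 of Atp5b-201 and keeps 219 of the 1590 coding bases. The 60 transcript bases around that start, at chr10:128089011-128089070 on the plus strand, show where the model begins, with its own bases in capitals.
Atp5b: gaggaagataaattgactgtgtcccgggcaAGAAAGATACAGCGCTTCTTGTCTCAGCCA
The full-length Atp5b-201 had 3393 and 2298 reads in replicates 2 and 1. By complete reading frames Atp5b then stood at 2419 and 2076 CPM in replicates 2 and 1, below Atp5a1 at 2999 and 2496 CPM, so the order of the 2 main F1 genes depended on which models were counted. Model ends can be set to annotated ends, so these starts are not measured read ends.

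Single-exon models made up the other cases. They hold no intron to match by, so those of a gene were pooled into 1 count. The model placed for each gene lay in the last exon, and this was not shown for every read. For Cox6a2 the single-exon models had 683 reads in replicate 2 and 204 in replicate 1, beside 1997 and 1477 for Cox6a2-201. Uqcrq had 560 and 233 such reads in replicates 2 and 1 beside 961 and 666 for Uqcrq-201, and Cox7a1 had 166 and 57 beside 538 and 311 for Cox7a1-201. For Atp5g2, 100 and 73 reads in replicates 2 and 1 fell in unspliced single-exon models, pooled in the same way, with a model of 151 nt among them. In Cox4i1, Atp5b, Cox6a2, Uqcrq and Cox7a1 the shortened models made up a larger part of the gene in replicate 2. The log2 ratio of replicate 2 over replicate 1 in CPM was 1.00 for the shortened Atp5b model and 0.22 for Atp5b-201.

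**Figure D4:**
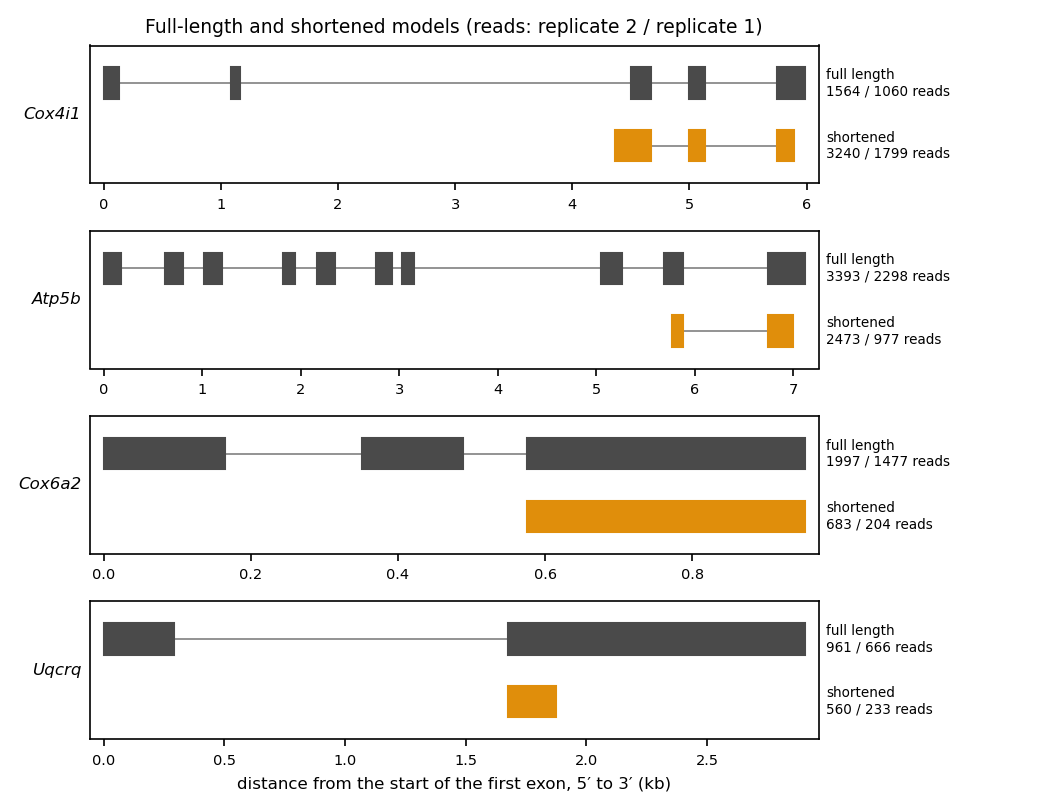
Exon structure of the full-length model (grey) and the most read shortened model (orange) of Cox4i1, Atp5b, Cox6a2 and Uqcrq, by distance from the start of the first exon in kilobases, boxes for exons and lines for introns. Reads are given as replicate 2 / replicate 1. For Cox6a2 and Uqcrq, reads of the shortened form are pooled over the gene's single-exon models and 1 such model is drawn. The shortened Atp5b model had 2473 and 977 reads.

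The libraries themselves were compared as replicate 2 over replicate 1. Among the 40 members with at least 50 reads in both libraries together, none differed over 2-fold, against 4.42% of all such genes. Of all such genes, 3.89% were over 2-fold higher in replicate 2. In 36 of the 40 the log2 ratio was above 0, against 61% of all genes, and in 22 the exact interval lay above 0, against 18.5%. Here and below, shares over 2-fold and shares of intervals off 0 depend on a gene's read number. The background starts at 50 reads, and no background with read numbers like those of the members was set beside them. Of the 41 members with at least 10 reads, 37 lay above 0, against 59.8% of all genes, and their median log2 ratio was 0.20, against 0.12 over all genes. All genes together were thus shifted by CPM scaling, and relative to them the members' median was higher by 0.07. With the scaling set by TMM, which centres the typical gene, the medians were 0.08 for the members and 0.00 for all genes, and 27 of the 41 members lay above 0, against 50.2% of genes.

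By complex, the median log2 ratio was 0.30 for the 9 complex III genes, 0.24 for the 14 complex IV genes and 0.14 for the 16 ATP synthase genes with at least 50 reads. The highest ratios were those of Cox7a1 at 0.60 (exact interval 0.42 to 0.79), Cox6a1 at 0.53 (−0.10 to 1.17) and Atp5b at 0.48 (0.42 to 0.54). The lowest were those of Uqcr10 at −0.13 (−0.29 to 0.03), Atp5d at −0.11 (−0.30 to 0.09) and Atp5j at −0.05 (−0.17 to 0.07). None of the 40 members had an interval wholly below 0, against 6.99% of all genes.

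From complete reading frames alone, the log2 ratio was 0.22 for Atp5b, against 0.48 from all its reads. For Cox6a2 it was 0.09, against 0.34 from all reads, and for Cox4i1 0.21, against 0.40. Uqcrc1, with few shortened models, had 0.45 and 0.46. Of the 40 members, 35 lay above 0 by complete frames, against 59.6% of all genes, and none differed over 2-fold, against 6.15%. Over the remaining reads, which lack a complete frame, the members' median was 0.34, against 0.11 over all genes, and 5 of 36 members were over 2-fold higher in replicate 2, against 9.64% of all genes. These were Atp5g1, Atp5j2, Cox6a2, Cox7a1 and Cox7b, chosen for naming after their values were seen. In that order, their reads without a complete frame in replicates 2 and 1 were 49 and 12, 14 and 5, 701 and 211, 173 and 60, and 78 and 28. The ratio of Atp5j2, at a log2 of 1.06, thus rests on few reads.

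**Figure D5:**
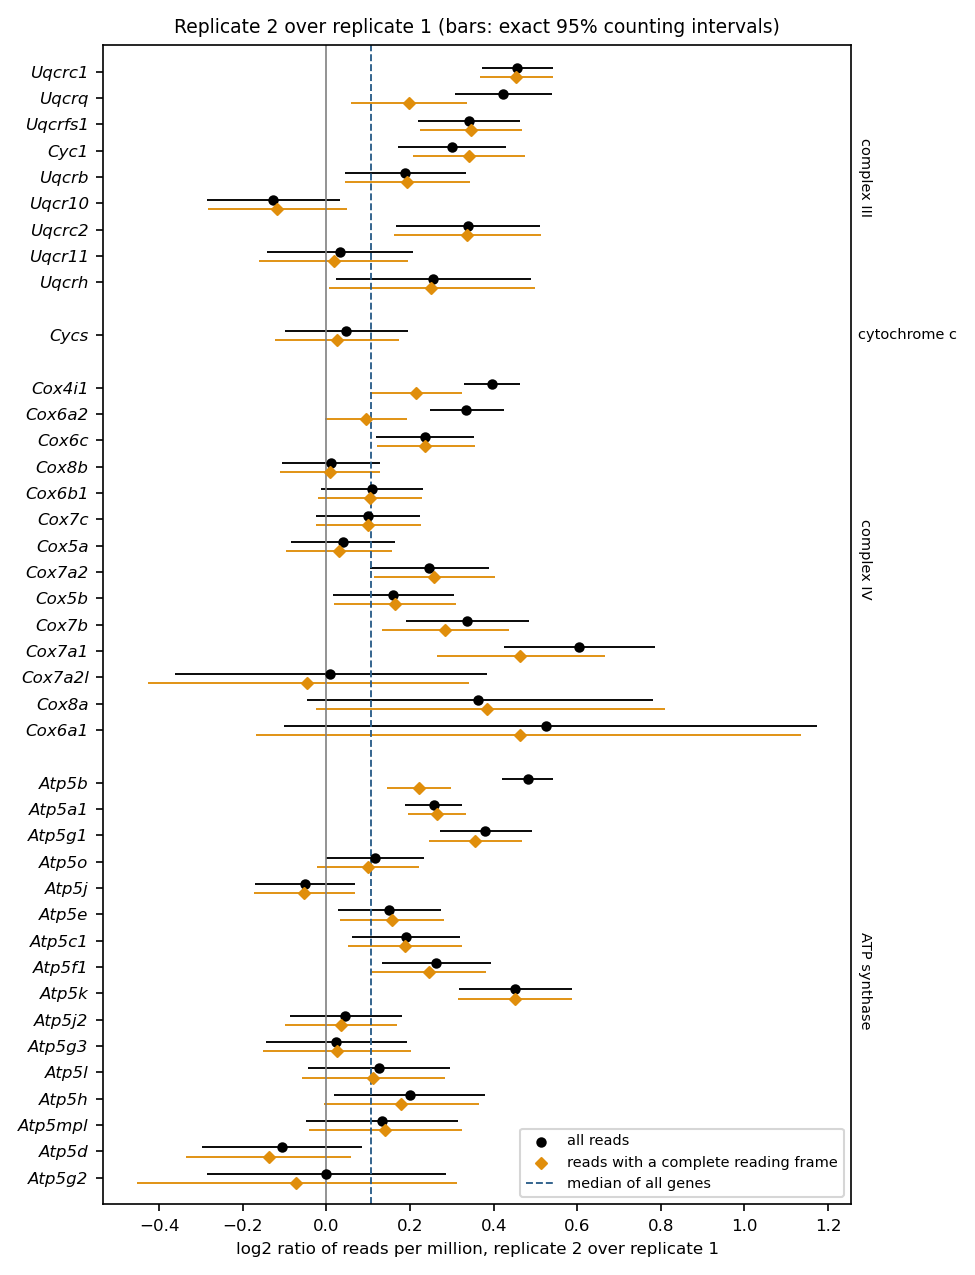
Log2 ratio of CPM, replicate 2 over replicate 1, for the members with at least 50 reads, from all reads (black) and from complete reading frames (orange), with exact 95% counting intervals; the dashed line is the median of all genes. Most points lie right of 0, and those of Atp5b, Cox4i1, Cox6a2 and Uqcrq move left when complete frames are counted.

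Markers of fibre type differed beside this. Slow and oxidative fibre genes summed to 6641 CPM in replicate 2 and 1878 CPM in replicate 1, and all 6 (Myh7, Myh2, Tnni1, Tnnc1, Myl2 and Atp2a2) were over 2-fold higher in replicate 2. Of the 6 skeletal muscle markers, 5 were lower in replicate 2 and Myh4 was higher. The tendon genes Fmod and Tnmd had 146 and 66, and 8 and 8 reads in replicates 2 and 1. Erythroid Hba-a1 and Hbb-bs had 71 and 97, and 51 and 53 reads in replicates 2 and 1, and smooth muscle Myh11 had 12 and 6. The share of spike-in reads was lower in replicate 2. The part of fibre content, of other cell types or of library preparation in the members' ratios was not tested, and a different number of such fibres cannot be told apart from a different amount of RNA per fibre in bulk tissue.

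Genes linked to the same complexes were read beside the members. Of 6 mitochondrially encoded subunits, 5 had reads, and 1 was higher in replicate 2 by CPM: mt-Cytb, for cytochrome b of complex III, with 1074 reads in replicate 2 and 626 in replicate 1. The complex IV core gene mt-Co1 had 1350 and 1168 reads in replicates 2 and 1, mt-Co2 had 81 and 69, mt-Co3 had 123 and 126, mt-Atp6 had 170 and 142, and mt-Atp8 had none. The median log2 ratio of these 5 was −0.11, while that of the nuclear members was 0.20. How fully mitochondrially encoded transcripts were captured, and how their reads were assigned to genes, was not tested. Their counts, with none for mt-Atp8, are thus not levels to set against those of the members. The 4 complex II genes Sdha, Sdhb, Sdhc and Sdhd, which pass electrons from succinate to ubiquinone, were all higher in replicate 2 by CPM, with a median log2 ratio of 0.37, above that of the members. Sdhb had 1415 reads in replicate 2 and 699 in replicate 1. Of 32 assembly factor genes, 31 had reads, 24 of the 31 had a log2 ratio above 0, and their median was 0.21. Assembly factors of complex III summed to 572 CPM in replicate 2 and 565 CPM in replicate 1, and those of complex IV to 1587 and 1304 CPM. Ndufa4, which is a complex IV subunit despite its name, had 2870 and 1910 reads in replicates 2 and 1, and Usmg5, a membrane subunit of ATP synthase, had 1196 and 771. In CPM, Ndufa4 stood at 2046 and 1725 in replicates 2 and 1, above the median of 764 over complex IV genes with at least 50 reads. Usmg5 stood at 853 and 696 CPM in replicates 2 and 1, near the median of 769 over such ATP synthase genes. Neither was counted as a member.

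Promoter sequence was available for 30 of the 43 members in RefSeq's table for build GRCm38.p6, as 33 promoters, each from 250 bases before to 50 after the gene's start. The pair of subunit 8 is shown because its genes differed in abundance by a log2 ratio of 3.35 in replicate 2 and 3.69 in replicate 1. The 250 bases before each start are printed on the gene's strand, with every CG in capitals. Cox8b lies at chr7:140900447-140900696 and Cox8a at chr19:7217617-7217866, both on the minus strand.
Cox8b: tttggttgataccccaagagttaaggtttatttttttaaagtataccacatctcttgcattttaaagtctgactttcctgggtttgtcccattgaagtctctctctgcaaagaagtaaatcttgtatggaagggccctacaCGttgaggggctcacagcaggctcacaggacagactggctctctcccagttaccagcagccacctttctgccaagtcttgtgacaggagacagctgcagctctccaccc
Cox8a: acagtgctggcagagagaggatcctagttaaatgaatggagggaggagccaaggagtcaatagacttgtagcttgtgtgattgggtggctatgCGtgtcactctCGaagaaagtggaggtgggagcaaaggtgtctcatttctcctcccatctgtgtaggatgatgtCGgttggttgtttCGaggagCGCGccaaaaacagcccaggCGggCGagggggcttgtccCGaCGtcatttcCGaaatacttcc
Cox8b held 1 CG and Cox8a 11, and the median was 6 over 32544 promoters and 14 over the members' promoters. In the same window Cox7a1 held 4 and Cox7a2 14, and Cox6a1 held 26. The muscle forms with a listed promoter thus held fewer CG pairs than their partners, whichever of the pair was read more, and this is a description of sequence alone.

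Motifs were searched on both strands of the full 300 bases, as letters with N for any base. The NRF1 motif was found in 8 of the 33 member promoters, or 24.2%, and in 4.63% of all promoters. The ETS motif CCGGAAG was found in 10, or 30.3%, against 8.91% of all, and the YY1 motif AANATGGCG in 3, or 9.09%, against 2.39%. The E box CANNTG was present in 72.7% of member promoters and 72.3% of all, and the GC box GGGCGG in 27.3% of member promoters and 35.9% of all. The ERR motif TNAAGGTCA was found in 1 member promoter and the MEF2 motif in none, against 1.28% and 3.16% of all. The NRF1, ETS, YY1 and GC box motifs contain a CG, and the members' promoters held more CG pairs by median, 14 against 6. No background of promoters with like CG counts was set beside them, so the motif shares were not separated from CG content. Matches of different motifs may overlap, and a match in letters is a description of sequence, not a binding site.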

How the data were processed

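Long cDNA reads of 2 gastrocnemius libraries were analysed from the deposited transcript tables, whose values are raw counts of reads per transcript model, made by the authors with TALON per the file headers, each library on its own. The labels name assembly mm10 and GENCODE release M21. Aligner and settings: not given in the sources used here. Reads were summed per gene, with the 2 gene IDs of Atp5o merged, and divided by the reads of annotated genes to give CPM, leaving out spike-ins and unannotated genes.

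No p-value was computed, since there is 1 group. Wilson and exact binomial 95% intervals, means and SDs were computed with Python 3.11.15, pandas 2.3.3, numpy 2.4.6 and scipy 1.17.1, figures with matplotlib 3.10.9, and TMM factors with edgeR 4.0.16 in R 4.3.3. The exact interval and the 2-fold calls were tested on simulated counts, and the scoring of exons and reading frames on constructed cases. A prior of 0.5 reads was added for medians over lists and for pair ratios. A model was counted as holding a complete reading frame when it contained an annotated coding sequence whole. Pseudogenes were matched by sequence at 90% identity. Both libraries show the same donor identifier, so their SD may be technical.

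Genes were named by rule: the 6 pairs, the 3 most and 2 least read core subunits of each complex, the 3 highest and 3 lowest log2 ratios, members under 10 reads, the 6 lowest dominant transcript shares and the 5 most read shared unannotated chains. Others are given to account for every member. Members, lists and rules were chosen with earlier results of these data known. Coding sequences come from GENCODE transcripts and promoters from RefSeq (GRCm38.p6).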

Additional observations from a re-analysis of the deposited data

Results flagged for a closer look

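Reads outside the members' own counts appeared in both libraries. Pseudogenes matched to a member by sequence held 1152 reads in replicate 2 and 806 in replicate 1, above the limit that a count of 0 allows. Antisense genes over the members held 32 reads in replicate 2 and 17 in replicate 1, spread over 15 members. Their part in the members' counts was not tested.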

How the results depend on the processing

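Of 131 alternative values over 20 results, 100 stayed within their error, 30 moved and 1 reversed. The error of most results was the SD of the 2 libraries, and a value from 1 library alone always lies within it. Adding pseudogenes to genes without any also left the value unchanged. The 100 thus include outcomes fixed in advance and do not measure robustness. The reversal was the log2 ratio of Cox7a1 over Cox7a2, at 0.0812 when divided by transcript length. With annotated transcripts only, the shares of reads were 0.975% for complex III, 0.0908% for cytochrome c, 1.71% for complex IV, 1.85% for ATP synthase and 4.63% for all members. With complete reading frames only, an alternative chosen after seeing the data, they were 0.928%, 0.0872%, 1.36%, 2.02% and 4.39% in that order. The cytochrome c share was 0.0600% of all endogenous reads and 0.0633% with sequence-matched pseudogenes, also chosen after seeing the data. With annotated transcripts only, log2 ratios were 5.23 for Cox6a2 over Cox6a1, −0.92 for Cox7a1 over Cox7a2 and 10.91 for Cox4i1 over Cox4i2. By complete frames, Cox6a2 over Cox6a1 was 5.28 and Cox4i1 over Cox4i2 9.44. Per length, they were 5.27 and 11.27, and Cox8b over Cox8a was 4.13. The length used for Cox4i1 was that of its retained-intron transcript. A prior of 1 gave 10.60 for Cox4i1 over Cox4i2 and 9.61 for Cox7b over Cox7b2, and leaving out genomic reads gave 10.94 for Cox4i1. With median-ratio factors the members' median log2 ratio between libraries was 0.0612. Inclusion of the Atp5c1 exon was 1.03% in annotated transcripts and 1.05% without incomplete splice matches. Unannotated chains with at least 5 reads in each library took 0.361% of member reads. Causes were not tested.

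Leaving out 1 library gave 0.619% to 0.766% for complex III, 0.0607% to 0.0627% for cytochrome c, 1.09% to 1.30% for complex IV, 1.45% to 1.73% for ATP synthase and 3.22% to 3.86% for all members. Pair ratios ran over 5.43 to 5.61 for Cox6a2, −0.84 to −0.49 for Cox7a1, 3.35 to 3.69 for Cox8b, 10.94 to 10.94 for Cox4i1, 9.30 to 11.33 for Cox6b1 and 10.27 to 10.95 for Cox7b. Those of Cox6b1 and Cox7b stand on paralogs with 0 reads in at least 1 library, so they are set by the prior and are neither measured ratios nor bounds. Exon inclusion ran over 1.09% to 1.10% in Atp5c1 and 8.89% to 11.4% in Cox7a2l, and unannotated chains over 1.04% to 1.11%. No paired analysis was possible because the study has a single group. Depth limits genes with few reads, such as Cox4i2 with 2 and 1.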
